A study of Mus musculus with 12 samples.

Results

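A run of neighbouring genes at the start of mouse chromosome 3 was examined, 10 of the 27179 gene IDs counted in each library and 10 of the 16475 that had enough counts to be tested. They are Zfhx4, Pex2, Zc2hc1a, Stmn2, Tpd52, Zbtb10, Zfp704, Pag1, Impa1 and Snx16. They were chosen by their measured levels, which were higher in knockout than in control retina at both ages, and fatty acid binding protein genes of the same stretch were left out. The difference of these genes between knockout and control, and how it compares between the ages, are therefore described here without a test. Tests are given for change with age within each genotype and for related genes elsewhere in the genome. Change with age uses the same libraries, though not directly the difference that chose the genes. The changes in KO and in control differ by as much as the KO difference differs between the ages. The tests with age are therefore not fully independent of the choice.

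Whole retina was profiled by RNA sequencing in 4 groups of 3 libraries. These were mice aged 12 months with a deletion of ABCA1 in glia (KO), control mice of 12 months, KO mice of 3 months and control mice of 3 months. ABCA1 is a transporter that loads cholesterol and phospholipids onto lipoproteins. The sources used here do not give the promoter that drives the deletion or the alleles the controls carry. Nor do they say that each library came from a separate animal, and the spread that the p-values rest on may be technical.

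Neighbouring genes on a chromosome are often unrelated in function. They can still share stretches of open or closed chromatin and enhancers, which act over long distances. The members here belong to different families. Zfhx4, Zbtb10 and Zfp704 encode zinc finger proteins of the nucleus. Pex2 serves peroxisome assembly, Tpd52 and Snx16 membrane traffic, Pag1 and Impa1 signalling, and Stmn2 the microtubules of neurons, while Zc2hc1a is little studied. In the retina, Stmn2 is known from neurons with long axons, above all the ganglion cells.

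Library totals lay between 29027099 and 30438026 counts. The targeted gene Abca1 was at 36.3 ± 7.91 CPM in KO and 30.8 ± 2.66 CPM in control retina at 12 months, and at 26.3 ± 1.78 CPM in KO and 22.7 ± 3.34 CPM in control retina at 3 months (SD, n = 3 each). These counts come from all cells of the retina and cannot check a deletion in glia alone. Replicate 2 of 3-month control and replicate 1 of 12-month KO stood apart from their groups: their squared differences from the other libraries were 41.9 to 43.1 and 21.6 to 24.9 times the counting variance, against 4.19 and 5.16 between the other pair of each group. Lens genes took 0.348% of the counts of that 3-month control library and at most 0.0134% elsewhere. The 7 lens markers summed to 5.38 to 6.82 CPM in KO and 31.8 to 3549 CPM in control retina at 3 months. These ranges did not overlap, and none of the 7 passed. The summed level of 8 skeletal muscle markers was 4.18 to 7.34 CPM in KO and 68.8 to 79.2 CPM in control retina at 3 months, whereas at 12 months it was 3.36 to 5.32 CPM in KO and 3.94 to 4.47 CPM in control retina. At 12 months Xist counts were 1583 to 2519 in KO and 5 to 6 in control libraries, and at 3 months 2 to 18 in KO and 6 to 8 in control libraries. The 4 listed Y-linked genes did not follow this and had at least 280 counts in every library. Of these, Ddx3y was at 33.7 to 45.4 CPM in KO and 30.6 to 38.2 CPM in control retina at 12 months. At 12 months the Xist level followed genotype in every library, so the deletion and whatever raised Xist cannot be told apart at that age. The listed markers of rods, cones, bipolar cells, ganglion cells and Müller glia all had counts, and none of them passed between KO and control at either age. Besides the lens and muscle markers at 3 months and Xist at 12 months, some marker sums moved with genotype without overlap of libraries. At 12 months these were the sums of ganglion cells (given with Stmn2), bipolar cells, Müller glia, astrocytes and microglia. At 3 months they were those of cones, Müller glia and microglia. At 12 months the bipolar cell markers summed to 1290 to 1443 CPM in KO and 1538 to 1601 CPM in control retina, and the microglia markers to 31.1 to 33.1 CPM in KO and 25.96 to 28.8 CPM in control retina. The Müller glia markers summed to 3770 to 3838 CPM in KO and 3895 to 4042 CPM in control retina at 12 months, and to 3717 to 3742 CPM in KO and 3755 to 4034 CPM in control retina at 3 months. The part of these differences in the results below was not tested.

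By RefSeq (GRCm38.p6), the members run along chromosome 3 from the start of Zfhx4 at 5218218 to the end of Snx16 at 10440131, a span of 5.22 Mb, and all 10 are protein coding. The gene bodies are 18409 bases (Pex2) to 197644 bases (Zfhx4) long. They do not touch: the gaps between one member and the next range from 77.4 kb between Zfp704 and Pag1 to 1925 kb between Pex2 and Zc2hc1a. By GENCODE annotation of the same build, 4 members lie on the plus strand (Zfhx4, Zc2hc1a, Stmn2 and Zbtb10) and 6 on the minus strand, so they are not transcribed in 1 direction. Exons of Zfp704 overlap 2525 bases of C030034L19Rik and those of Snx16 overlap 330 bases of Chmp4c, both on the opposite strand. Whether the counting used strand is not stated, and reads of these pairs may not be told apart. C030034L19Rik had at most 4 counts in any library. Exons of Impa1 share 243 bases with Gm38303 on the same strand.

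All 10 members were higher in KO than in control retina at both ages. The median fold of KO over control was 1.53 at 12 months (1.23 for Zfhx4 to 1.76 for Zc2hc1a) and 1.59 at 3 months (1.48 for Zfhx4 to 1.73 for Snx16). Across all 16475 genes the median log2 fold change was -0.002 at 12 months and 0.0018 at 3 months. In whole tissue, more cells of a type and more RNA per cell cannot be told apart. At 12 months, 5 members passed an adjusted p of 0.05 as higher (Pex2, Zc2hc1a, Stmn2, Tpd52 and Impa1), a call made for 0.127% of all genes. At 3 months, 9 members passed, all but Zc2hc1a, where the share over all genes was 0.0668%. As this difference chose the genes, these counts are a description. In 8 members the lowest KO library lay above the highest control library at 12 months, as in 8.32% of all genes, and in 10 members at 3 months, as in 7.97% of all genes.

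**Figure D1:**
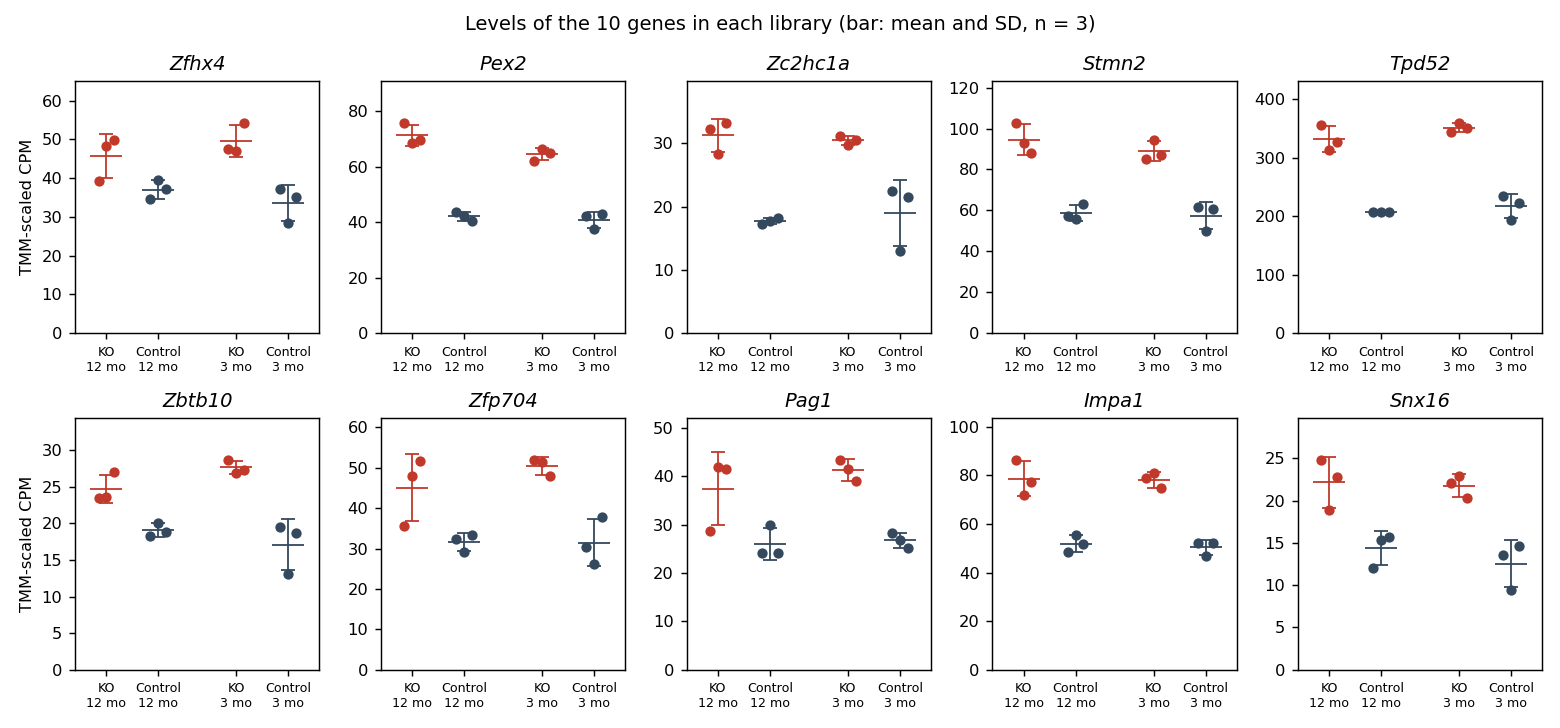
TMM-scaled CPM (vertical axis, from 0) of each gene in each library, with 12-month KO and control at left and 3-month KO and control at right of each panel; points are libraries, bars the mean and SD of 3. The KO points lie above the control points in every panel at 3 months, and at 12 months in all panels except Zfhx4 and Pag1, where 1 KO library reaches down to the control range.

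The first role is that of regulators of transcription. Zfhx4 is a very large protein with zinc fingers and homeodomains that acts in neural development. Its scaled level in CPM, the counts scaled to library size with TMM factors, was 39.2, 48.2 and 49.8 in the 12-month KO libraries, against 34.6, 39.4 and 37.2 in 12-month control. At 3 months it was 47.4, 47.0 and 54.2 CPM in KO and 37.1, 28.4 and 35.2 CPM in control retina. KO and control overlapped at 12 months, where KO replicate 1 was low, and were apart at 3 months. On the log2 scale, KO exceeded control by 0.30 ± 0.11 at 12 months and by 0.56 ± 0.11 at 3 months (fold change ± SE, as for the genes below), the smallest values of the 10 at each age.

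Zbtb10 is a BTB zinc finger protein that binds GC-rich DNA as a repressor. It stood at 23.5, 23.6 and 26.96 CPM in 12-month KO libraries, against 18.3, 20.1 and 18.9 CPM in 12-month control. In 3-month retina the values were 28.7, 26.9 and 27.3 CPM in KO and 19.5, 13.1 and 18.7 CPM in control. No control library reached a KO library of its age, and control replicate 2 at 3 months was the lowest of the 12. Its log2 fold change, 0.37 ± 0.12 at 12 months and 0.69 ± 0.12 at 3 months, was the least even of the 10 between the ages.

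For Zfp704, a zinc finger gene whose human counterpart is ZNF704, 12-month KO libraries had 35.6, 48.0 and 51.7 CPM, against 32.5, 29.1 and 33.3 CPM in 12-month control. The 3-month values were 52.0, 51.5 and 47.9 CPM in KO and 30.4, 26.2 and 37.8 CPM in control retina. The groups did not overlap, but KO replicate 1 at 12 months lay close to its controls, 1.07 times the highest of them. Log2 fold changes of 0.51 ± 0.13 at 12 months and 0.68 ± 0.13 at 3 months resulted.

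The next group works on organelles and membranes. Pex2 encodes a ring finger ubiquitin ligase of the peroxisome membrane, which lets the import receptor for peroxisomal enzymes be recycled. It had 75.8, 68.5 and 69.7 CPM in 12-month KO libraries and 43.7, 42.1 and 40.5 CPM in 12-month control. At 3 months KO libraries had 62.2, 66.4 and 65.1 CPM, and control libraries 42.1, 37.5 and 43.0 CPM. The distance between the groups was wide at both ages: the lowest KO library was 1.57 times the highest control library at 12 months and 1.45 times at 3 months. This gave log2 fold changes of 0.76 ± 0.077 at 12 months and 0.66 ± 0.077 at 3 months.

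Tpd52, a coiled-coil protein of vesicle traffic and secretion, was the most abundant member, with a mean level above that of 96.8% of the tested genes. Levels were 355, 312 and 327 CPM in 12-month KO libraries and 207, 207 and 208 CPM in 12-month control libraries, which hardly differed from each other. At 3 months they were 343, 359 and 349.8 CPM in KO and 234, 194 and 223 CPM in control retina. Every KO library was far above every control library, whichever the age. The log2 fold changes, 0.68 ± 0.074 at 12 months and 0.69 ± 0.074 at 3 months, rest on 5788 to 10743 counts per library.

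Snx16 encodes a sorting nexin, which binds phosphoinositides on endosomes, and had the lowest CPM of the members, not scaled to exon length. The 12-month KO libraries had 24.8, 18.9 and 22.8 CPM and the 12-month control libraries 12.1, 15.4 and 15.7 CPM. At 3 months KO libraries stood at 22.1, 22.9 and 20.3 CPM and control libraries at 13.6, 9.38 and 14.7 CPM. KO and control did not overlap, and the lowest of all was 3-month control replicate 2, with 280 counts. The log2 fold changes were 0.63 ± 0.15 at 12 months and 0.79 ± 0.15 at 3 months, or 0.62 at 3 months without that control library.

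Among the signalling genes, Pag1 encodes a transmembrane adaptor of lipid rafts that recruits Csk, the kinase that holds Src family kinases inactive. In 12-month KO libraries it stood at 28.8, 42.0 and 41.6 CPM, and in 12-month control at 24.1, 29.9 and 24.1 CPM. The 3-month libraries had 43.5, 41.6 and 39.001 CPM in KO and 28.2, 26.8 and 25.3 CPM in control. As for Zfhx4, KO replicate 1 was the low library at 12 months and fell below the highest control. Its log2 fold change at 12 months was 0.53 ± 0.12, or 0.68 without that library, and at 3 months 0.63 ± 0.12.

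Impa1, the lithium-sensitive inositol monophosphatase that returns inositol to the phosphoinositide cycle, had 86.4, 72.1 and 77.2 CPM in 12-month KO libraries and 48.4, 55.3 and 51.9 CPM in 12-month control. At 3 months it had 78.8, 80.9 and 74.7 CPM in KO and 52.2, 46.9 and 52.0 CPM in control retina. KO and control were apart at both ages, and KO replicate 1 was here the highest library at 12 months. In log2 terms the difference was 0.60 ± 0.082 at 12 months and 0.63 ± 0.082 at 3 months.

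Stmn2 encodes a neuronal stathmin that loosens microtubules in growth cones and axons. It had 103, 92.8 and 88.1 CPM in 12-month KO libraries, against 57.4, 55.7 and 63.3 CPM in 12-month control. The 3-month values were 85.1, 94.5 and 87.0 CPM in KO and 61.8, 49.9 and 60.4 CPM in control retina. The groups were apart at both ages, with log2 fold changes of 0.69 ± 0.088 at 12 months and 0.63 ± 0.088 at 3 months. The summed level of 12 listed ganglion cell markers, which do not include Stmn2, was 1016 to 1060 CPM in KO and 1103 to 1147 CPM in control retina at 12 months, and 1068 to 1104 CPM in KO and 1092 to 1171 CPM in control retina at 3 months. None of the 12 passed at either age, and their median log2 fold change was -0.10 at 12 months and -0.02 at 3 months. They did not all move the same way. At 12 months Nefl, the most abundant, was at 342 to 364 CPM in KO and 369 to 400 CPM in control retina. Nrn1 was at 43.3 to 49.7 CPM in KO and 38.3 to 42.9 CPM in control retina at that age.

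Zc2hc1a, a C2HC-type zinc finger gene of little known function, had 32.3, 28.2 and 33.2 CPM in 12-month KO libraries and 17.3, 17.8 and 18.1 CPM in 12-month control. At 3 months it had 31.2, 29.7 and 30.5 CPM in KO and 22.4, 13.005 and 21.5 CPM in control libraries. The KO libraries were all above the control libraries, and 3-month control replicate 2 was far below its fellows. At 12 months the log2 fold change of 0.82 ± 0.14 was the highest of the 10, and at 3 months it was 0.68 ± 0.14, or 0.47 without that control library.

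Relative to exon length, the members spanned a wide range of levels, and their order was nearly the same in KO and control. In 12-month KO retina the mean level was 44.3 CPM per kb of exon for Tpd52, 31.4 for Pex2, 16.9 for Stmn2, 14.4 for Impa1, 8.91 for Zc2hc1a, 8.43 for Snx16, 3.91 for Pag1, 3.33 for Zbtb10, 2.96 for Zfp704 and 2.91 CPM per kb for Zfhx4. The ranges over the 3 libraries overlapped between Stmn2 and Impa1, between Zc2hc1a and Snx16, and between each neighbouring pair from Pag1 down to Zfhx4. In 12-month control retina Tpd52 was again first, at 27.7 CPM per kb, and Zfp704 last, at 2.07 CPM per kb. Exon length here joins all annotated transcripts, so these levels are approximate.

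The log2 fold changes of KO over control had an SD over the members of 0.163 at 12 months and 0.0601 at 3 months, beside a median SE of a single fold change of 0.115 at 12 months and 0.116 at 3 months. The members were chosen for these differences and share their libraries, so these values are a description. Without both libraries that stood apart, an alternative chosen after seeing the data, the median log2 fold change was 0.62 at 12 months (0.40 to 0.79) and 0.58 at 3 months (0.46 to 0.63).

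**Figure D2:**
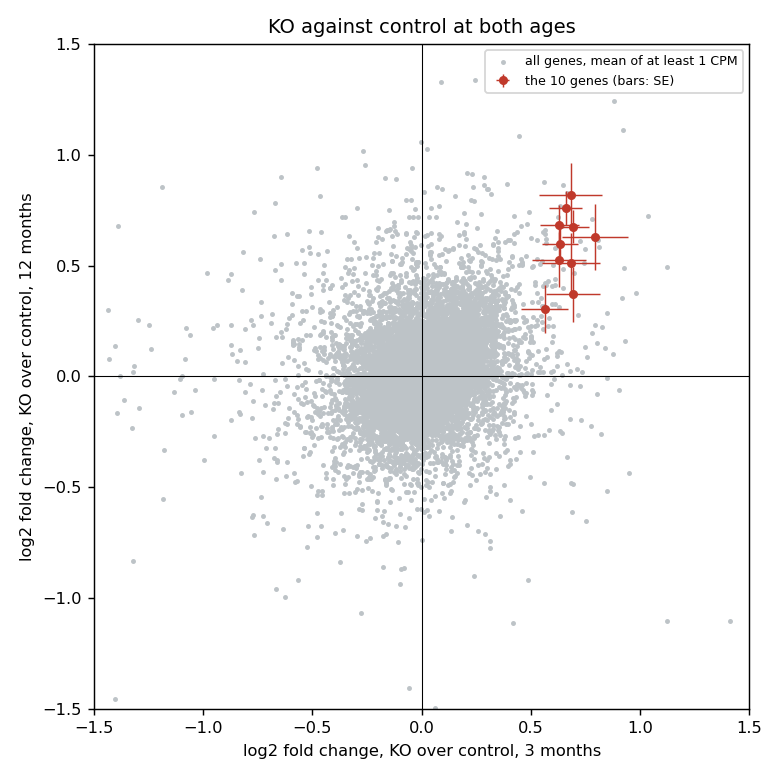
Log2 fold change of KO over control at 12 months (vertical) and 3 months (horizontal) for the 14356 genes with a mean of at least 1 CPM (grey) and the 10 genes (red, with SE bars); 49 genes lie outside the plotted range. The 10 genes sit together in the upper right, between 0.30 and 0.82 at 12 months and between 0.56 and 0.79 at 3 months.

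The members were not the only genes of the stretch that were higher in KO retina. The count tables hold 28 gene IDs that start between Zfhx4 and Snx16, and 22 were tested. The other 6 had at most 6 counts in any library. Of the 12 tested genes that are not members, 5 code for fatty acid binding proteins. The fold change of the 12 was above 0 for 11 at 12 months and for 12 at 3 months. Among the 9 of them with a mean of at least 1 CPM the median log2 fold change was 0.60 at 12 months and 0.42 at 3 months. Of these 9, 2 passed as higher at 12 months, Zfand1 and 1 fatty acid binding protein gene, and at 3 months that fatty acid binding protein gene passed.

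The non-members that lie among the 10 varied in size of difference. The 4 fatty acid binding protein genes with at least 1 CPM had log2 fold changes of 0.37 to 0.87 at 12 months and 0.24 to 0.61 at 3 months. Pkia, an inhibitor peptide of protein kinase A next to Zc2hc1a, had 54.7 ± 5.88 CPM in KO and 35.7 ± 1.41 CPM in control retina at 12 months, and 50.6 ± 3.57 CPM in KO and 28.9 ± 8.03 CPM in control retina at 3 months (SD, n = 3 each). Hey1, a target of Notch signalling, had log2 fold changes of 0.50 ± 0.11 (SE) at 12 months and 0.46 ± 0.11 (SE) at 3 months, and the mitochondrial ribosome gene Mrps28 of 0.60 ± 0.14 (SE) at 12 months and 0.42 ± 0.14 (SE) at 3 months. Pkia, Hey1 and Mrps28 did not pass at either age, although their KO and control libraries did not overlap. Zfand1, a zinc finger gene of stress granule clearance, had 20.6 ± 1.67 CPM in KO and 13.2 ± 2.11 CPM in control retina at 12 months (SD, n = 3 each). The pseudogene Gm9833 was the one gene of the 12 below 0 at 12 months, with log2 fold changes of -0.16 ± 0.19 (SE) at 12 months and 0.37 ± 0.19 (SE) at 3 months.

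Beyond Snx16 most genes had smaller differences. The first named gene beyond Snx16 with at least 1 CPM was Ralyl, an RNA binding protein of neurons, 3.03 Mb further along. It had 21.9 ± 2.52 CPM in KO and 20.6 ± 1.15 CPM in control retina at 12 months, and 21.2 ± 1.04 CPM in KO and 21.8 ± 2.01 CPM in control retina at 3 months (SD, n = 3 each). The log2 difference of KO from control was 0.09 ± 0.11 at 12 months and -0.04 ± 0.11 at 3 months. The next were Lrrcc1, with 0.42 ± 0.16 (SE) at 12 months and 0.25 ± 0.16 (SE) at 3 months, and the cell cycle factor E2f5, with -0.01 ± 0.12 (SE) at 12 months and 0.03 ± 0.12 (SE) at 3 months. Just inside, Snx16 stood at 0.63 at 12 months and 0.79 at 3 months. Among the 31 genes with at least 1 CPM from there to 30 Mb, the median log2 fold change was 0.08 at 12 months and 0.09 at 3 months, and none passed. The single gene ID between Snx16 and Ralyl had at most 6 counts, so the data do not show where along those bases the difference ends.

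On the other side, Zfhx4 was the first gene with substantial counts. The 4 gene IDs placed between 3 Mb and Zfhx4 had at most 40 counts in a library. Of these, 2 were tested. The noncoding gene 2700069I18Rik, whose end lies within Zfhx4, had 0.94 ± 0.36 CPM in KO and 0.45 ± 0.17 CPM in control retina at 12 months, and 0.98 ± 0.14 CPM in KO and 0.59 ± 0.33 CPM in control retina at 3 months (SD, n = 3 each). Its log2 fold change was 1.06 ± 0.45 at 12 months and 0.72 ± 0.44 at 3 months (SE), and that of 1110015O18Rik -0.05 ± 0.57 at 12 months and 1.24 ± 0.59 at 3 months (SE). One further gene with a mean of at least 1 CPM, 4930534D22Rik, is placed by RefSeq at 10461, before the first GENCODE gene of the chromosome at 3004130, so its place is uncertain. Its values were -0.37 ± 0.21 at 12 months and 0.09 ± 0.23 at 3 months (log2 fold change ± SE).

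**Figure D3:**
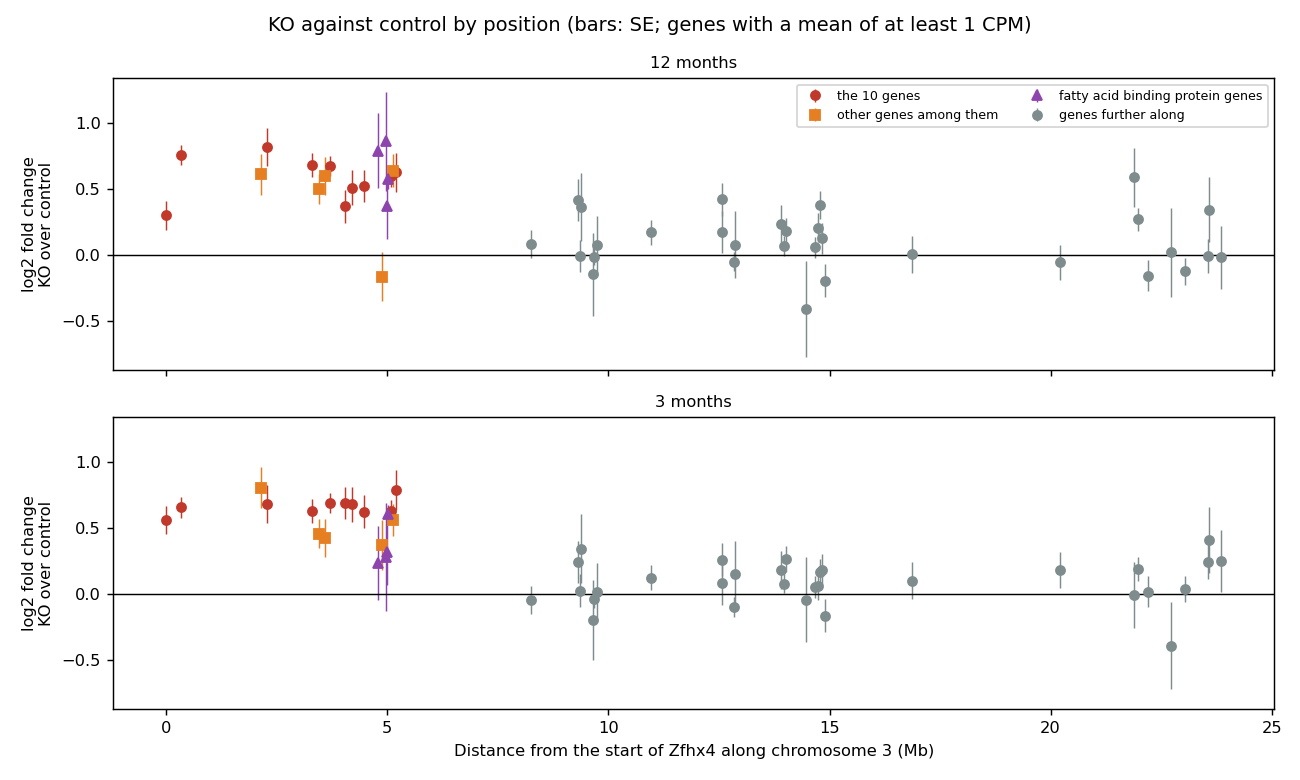
Log2 fold change of KO over control with SE (vertical) against distance from the start of Zfhx4 (horizontal, Mb) at 12 months (top) and 3 months (bottom), for genes with a mean of at least 1 CPM. The gene 4930534D22Rik, whose place is uncertain, is not drawn. Red circles (the 10 genes), orange squares and purple triangles lie above 0 within the first 5.22 Mb, except for Gm9833 at 12 months (-0.16), and grey circles further along scatter around medians of 0.08 at 12 months and 0.09 at 3 months.

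Each library's deviation from its group mean was compared between members over the 12 libraries, on the log2 CPM scale. Pearson's r over the 45 pairs of members had a median of 0.56, from -0.50 between Stmn2 and Pag1 to 0.94 between Zc2hc1a and Zbtb10, and was above 0.5 in 23 pairs. Without 3-month control replicate 2 the median was 0.05, and 12 pairs were above 0.5. In that library 9 of 10 members were below their group mean, with a median deviation of -0.21. Deviations in a group sum to 0, and in 3-month control replicates 1 and 3 the median was 0.11 and 0.080, with 1 member below the mean in each. The genes from Ralyl to 30 Mb had a median deviation of -0.21 in it too, while over all genes the median was 0.007. The pairs share libraries and depth, and no p is given.

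In 12-month KO replicate 1, the members went different ways. Pag1 (-0.36), Zfp704 (-0.32) and Zfhx4 (-0.21) were below the group mean, and Snx16 (0.17), Impa1 (0.14), Stmn2 (0.12) and Tpd52 (0.10) were above it. Without that library the log2 fold change at 12 months was 0.68 for Pag1, 0.66 for Zfp704 and 0.40 for Zfhx4, against 0.53 for Pag1, 0.51 for Zfp704 and 0.30 for Zfhx4 with it.

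**Figure D4:**
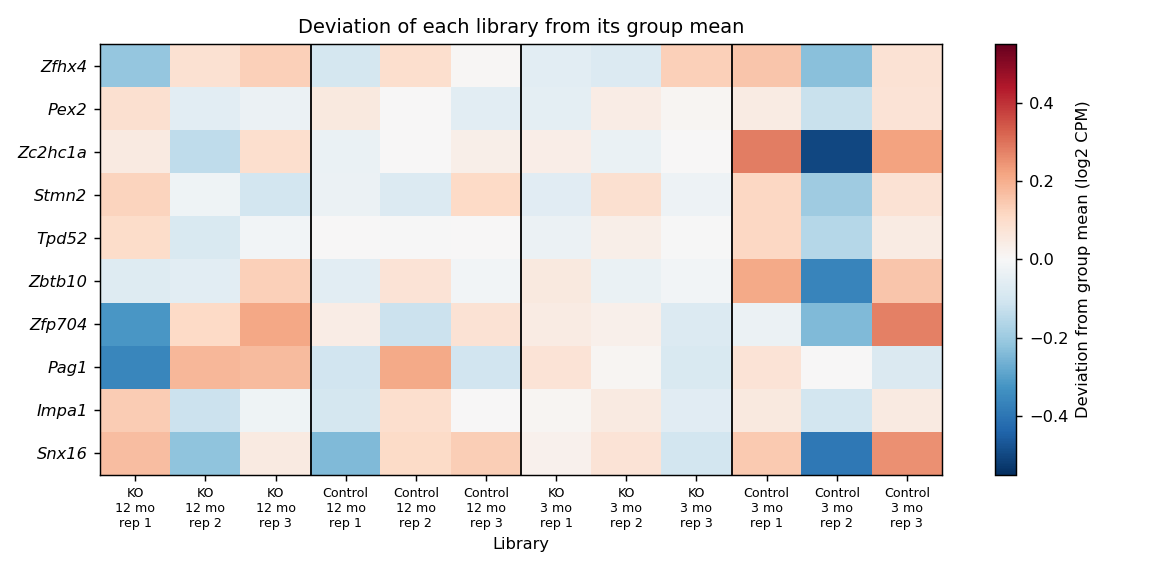
Deviation of each library (columns, 3 per group) from its group mean in log2 CPM for each of the 10 genes (rows), with red above and blue below the mean. The column of 3-month control replicate 2 is blue in 9 rows, down to -0.50 for Zc2hc1a, and that of 12-month KO replicate 1 is blue for Zfhx4, Zfp704 and Pag1 and red, at 0.10 to 0.17, for Tpd52, Stmn2, Impa1 and Snx16.

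Age within each genotype was compared next, and no member passed. In KO retina, 12 against 3 months, 0 of 10 members passed an adjusted p of 0.05, against 2.37% of all genes (edgeR quasi-likelihood test, Benjamini-Hochberg). The log2 fold changes ran from -0.16 (Zbtb10 and Zfp704) to 0.14 (Pex2), and 5 were above 0. Pex2 had 71.3 ± 3.90 CPM at 12 months and 64.5 ± 2.16 CPM at 3 months (SD, n = 3 each), the smallest adjusted p of the 10 (0.44, edgeR). No member had an unadjusted p below 0.05, and DESeq2 also called 0.

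In control retina, 12 against 3 months, 0 of 10 passed too, against 2.11% of all genes. The log2 fold changes ran from -0.10 (Zc2hc1a) to 0.19 (Snx16), with a smallest adjusted p of 0.68 for Zfhx4 (edgeR). Unadjusted p-values below 0.05 numbered 0, and DESeq2 called 0. Impa1, a steady member, had 51.9 ± 3.44 CPM at 12 months and 50.4 ± 3.00 CPM at 3 months in control retina (SD, n = 3 each). The 95% intervals of these log2 changes reached from -0.44 (Zfp704) to 0.34 (Snx16) in KO and from -0.41 (Zc2hc1a) to 0.51 (Snx16) in control retina. They were narrowest for Tpd52, at -0.24 to 0.07 in KO and -0.22 to 0.09 in control retina. For each member, changes within its own interval are not excluded by these data.

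The control values at 3 months rest in part on the library that stood apart. Without it, Zc2hc1a had a log2 change with age of -0.31 in control retina (adjusted p = 0.087, edgeR), and without both such libraries it passed (log2 change -0.31, adjusted p = 0.035, edgeR), the only one of 420 age values of members under all alternatives to do so. Over all its alternatives the adjusted p of this value ranged from 0.035 to 0.999 (edgeR or DESeq2).

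**Figure D5:**
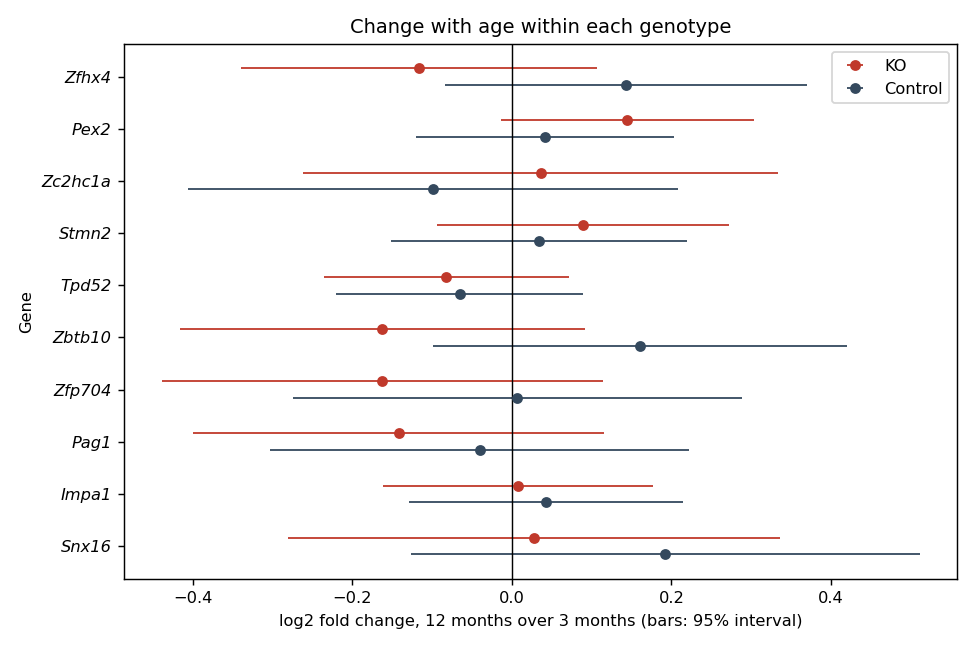
Log2 fold change of 12 over 3 months (horizontal) with its 95% interval for each of the 10 genes (rows), in KO (red, upper) and control retina (dark blue, lower). Every interval includes 0, the values lying between -0.16 and 0.14 in KO and between -0.10 and 0.19 in control retina.

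How the KO difference compares between the ages rests on the differences that chose the genes, and is given without a test. The log2 fold change at 12 months minus that at 3 months was below 0 for 7 members. Zbtb10 had the most negative value, -0.32 ± 0.17, followed by Zfhx4 at -0.26 ± 0.15 (SE). Zc2hc1a had the most positive, 0.13 ± 0.20, and Pex2 the next, 0.10 ± 0.11 (SE). For Tpd52 it was -0.02 ± 0.10, the smallest error of the 10. Over all genes, this difference passed for 0.127%.

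Genes related to the members but placed elsewhere in the genome were compared next, and none passed between KO and control. The list held 107 family and pathway partners, of which 105 were tested, and 0 passed in KO against control at 12 months (0.212% of all genes passed) or at 3 months (0.225% of all genes). An unadjusted p below 0.05 was seen for 15 of the 105 at 12 months, beside 1433 of all 16475 genes, and for 10 at 3 months, beside 1235 of all genes. DESeq2 called 0 at both ages. The median log2 fold change of the 105 was -0.02 at 12 months and 0.01 at 3 months.

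The most abundant partner of each family is given here. Of 15 peroxins other than Pex2, which build peroxisomes or import their enzymes, the median was -0.04 at both ages. Pex5l, a relative of the import receptor found in neurons, was the most abundant of them at 484 CPM in KO and 489 CPM in control retina at 12 months. Stmn1, the general stathmin, had log2 fold changes of -0.05 ± 0.087 (SE) at 12 months and 0.14 ± 0.087 (SE) at 3 months, set against 0.69 at 12 months and 0.63 at 3 months for Stmn2. Tpd52l2, the more abundant of 2 Tpd52 relatives, stood at 33.6 CPM in KO and 30.5 CPM in control retina at 12 months, with a log2 fold change of 0.14 ± 0.090 (SE).

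Among the partners of the nuclear proteins, Zfhx2 had a log2 fold change of -0.16 ± 0.14 (SE) at 12 months, Zbtb4 -0.19 ± 0.092 (SE) and Zfp395, a relative of Zfp704, -0.13 ± 0.082 (SE). At 3 months the values were -0.05 for Zfhx2, -0.04 for Zbtb4 and -0.11 for Zfp395. The 39 other BTB zinc finger genes had medians of -0.07 at 12 months and 0.03 at 3 months. Of the 29 other sorting nexins, with medians of -0.01 at 12 months and 0.04 at 3 months, Snx32 was the most abundant, at 102.9 CPM in KO and 103.0 CPM in control retina at 12 months. Cdipt, the phosphatidylinositol synthase downstream of Impa1, had a log2 fold change of -0.03 at each age, and Src, held in check through Pag1 and Csk, -0.16 ± 0.074 (SE) at 12 months and -0.05 ± 0.074 (SE) at 3 months. The relative of Zc2hc1a that was tested, Zc2hc1c, had -0.09 ± 0.12 at 12 months and 0.13 ± 0.12 at 3 months (SE).

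With age, 2 partners passed in KO retina, or 1.90% beside 2.37% of all genes, and 1 in control retina, or 0.952% beside 2.11% of all genes (edgeR quasi-likelihood test). These shares were no higher than those over all genes. Slc9a3r1, a scaffold that ties Pag1 to the cytoskeleton through ezrin, was higher at 12 than at 3 months in KO (50.4 to 51.2 CPM against 35.8 to 39.9 CPM; log2 0.41, adjusted p = 0.042) and in control retina (51.7 to 67.6 CPM against 33.6 to 43.7 CPM; log2 0.65, adjusted p = 0.0011). Zbtb8a was higher at 12 than at 3 months in KO retina (7.91 to 9.18 CPM against 5.07 to 5.69 CPM; log2 0.63, adjusted p = 0.014). All 3 libraries of 12 months lay above those of 3 months in each case. In control retina its log2 change was 0.11 (adjusted p = 0.84), and the difference of these changes did not pass (adjusted p = 0.999).

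The profile of the 10 members over the 12 libraries was set against those of other genes. Likeness was measured as the root mean square difference from the members' mean centred log2 CPM profile, for 14035 genes outside the first 30 Mb of chromosome 3. The closest was Dennd10, on chromosome 19, with a difference of 0.147, followed by Ednrb (0.149), Nipal1 (0.151), Zfp560 (0.157) and Bmpr1a (0.158). The median of all ranked genes was 0.367. The members themselves lay at 0.0786 (Tpd52) to 0.174 (Pag1) from their own mean, 9 of them closer than Dennd10, as can be expected of genes that make up the mean. Of the ranked genes, 6 lay no farther than Pag1. Of the 9 non-members of the stretch with at least 1 CPM, 1 fatty acid binding protein gene was closer than Dennd10.

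The log2 fold changes of these 5 similar genes were 0.22 to 0.46 at 12 months, within or below the members' range of 0.30 to 0.82, and 0.32 to 0.43 at 3 months, below the members' range of 0.56 to 0.79. Dennd10, a regulator of endosomes, had 54.2 ± 4.04 CPM in KO and 43.6 ± 2.78 CPM in control retina at 12 months, and 56.2 ± 0.901 CPM in KO and 41.9 ± 8.01 CPM in control retina at 3 months (SD, n = 3 each). Ednrb, the endothelin receptor type B, had log2 fold changes of 0.43 ± 0.15 (SE) at 12 months and 0.36 ± 0.15 (SE) at 3 months. Bmpr1a, a receptor for bone morphogenetic proteins, had 0.22 ± 0.096 at 12 months and 0.43 ± 0.096 at 3 months (SE). Nipal1, a magnesium transporter, had 0.46 ± 0.14 at 12 months and 0.32 ± 0.14 at 3 months, and the zinc finger gene Zfp560 had 0.36 ± 0.14 at 12 months and 0.32 ± 0.14 at 3 months (SE). These genes were picked for their likeness, so these values are a description.

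In the authors' deposited table for 12 months, the members had log2 fold changes of 0.23 (Zfhx4) to 0.64 (Pex2), all higher in KO. Each was smaller than the value given above, as for Zc2hc1a with 0.63 against 0.82. DESeq2 as run here gave 0.30 to 0.81 for the members. The 2 sets of values are therefore not on the same footing, and the cause was not tested. That table lists 8 of the 10 below an adjusted p of 0.05, among 109 such genes in all. The share this makes of all genes in that table is not given here. By the authors' deposited table, Zfhx4 (adjusted p = 0.30, DESeq2) and Zbtb10 (adjusted p = 0.13, DESeq2) did not pass. These libraries are the 12-month libraries described above, so the table is no separate evidence.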

How the data were processed

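Stranded mRNA libraries were sequenced on an Illumina instrument, per the labels' protocols. The submitters' processing notes name HISAT2 2.1.0, GRCm38, featureCounts 1.6.4 and DESeq2 1.22.1. Each library's file, as deposited, holds raw counts by Entrez gene ID. A 12-month table without a header was read as the authors' mean normalized count (a signal), log2 fold change, its standard error, their ratio (a Wald score), and the deposited p-value before and after adjustment. Between 60.7% and 70.2% of counts from 1 to 20 were even, as when both mates are counted, and low counts then stand for fewer fragments.

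A RefSeq table of the same build named 25275 of 27179 IDs. edgeR 4.0.16 in R 4.3.3 fitted the counts (filterByExpr, TMM, robust glmQLFit and glmQLFTest, all 12 libraries, 1 coefficient per group), with Benjamini-Hochberg adjustment over 16475 genes. Log2 CPM had a prior count of 2. The fit was also run on simulated counts with planted changes, and the outcome is not given here. The simulation used the same dispersion for every gene, had no libraries that stood apart, and left out the 3-month KO comparison. The planned test of the members' KO effects between the ages is not reported, as it is built from the differences that chose them. The members, the window, the gene lists and the rule for named genes were chosen with earlier results of these data known. The named genes are the members, the other genes of the stretch with at least 1 CPM (fatty acid binding protein genes by count), the first 3 beyond it, the relatives that passed or else the most abundant of each family, and the 5 most similar profiles. Alternatives included DESeq2 1.42.0, other scalings and filters, and leaving out libraries.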

Additional observations from a re-analysis of the deposited data

How the results depend on the processing

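All 420 member values of KO against control under the alternatives were above 0. These were RLE and upper quartile factors, other filters, DESeq2, only the libraries compared, and the replicate block. Each library was also left out, as were both libraries that stood apart. Each value moved by less than 1 SD of that gene's log2 CPM within groups, pooled over the groups. Leaving out 1 of 3 libraries can hardly move a value past that bar, so it shows little. Without 3-month control replicate 2, the 3-month value of Zc2hc1a fell from 0.68 to 0.47. The 420 also include a threshold of 0.1, which changes no fold change. Leaving out a library of the other age hardly moved the values, and the members were chosen for this sign. The medians over members ranged, with 1 library left out, from 0.54 to 0.68 at 12 months and from 0.58 to 0.70 at 3 months. The lowest 3-month value was without control replicate 2. With the replicate number as a block, the medians were 0.61 at 12 months and 0.68 at 3 months. The block changed no call with age among members and none between KO and control among relatives. The calls with age among relatives were not repeated under any alternative. The numbers do not pair the libraries: of 18 same-numbered pairs 4 correlated above 0.1 (-0.34 to 0.38), and 2 of 12 libraries correlated best with their own number.

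The members called for age stayed at 0 in every alternative except 1 call in control (Zc2hc1a, without both libraries). Several of the changes with age, and of the differences of KO effects between the ages (given without a test), turned sign. With upper quartile factors the difference was 0.00369 for Tpd52. Without both libraries, an alternative chosen after seeing the data, the change with age in KO was 0.016 for Pag1, -0.066 for Impa1 and -0.062 for Snx16, and in control -0.016 for Pex2, -0.056 for Stmn2, -0.00017 for Zbtb10, -0.11 for Zfp704 and -0.0056 for Impa1, and the difference was 0.0055 for Tpd52, 0.090 for Zfp704 and 0.055 for Pag1. With 1 library left out, the change in KO ranged from -0.066 to 0.066 (Impa1), -0.23 to 0.016 (Pag1), -0.062 to 0.13 (Snx16) and -0.010 to 0.10 (Zc2hc1a). In control it ranged from -0.0059 to 0.090 (Impa1), -0.15 to 0.013 (Pag1), -0.016 to 0.079 (Pex2), -0.056 to 0.091 (Stmn2), -0.00050 to 0.26 (Zbtb10), -0.31 to 0.038 (Zc2hc1a) and -0.11 to 0.16 (Zfp704). The difference ranged from -0.11 to 0.023 (Impa1), -0.19 to 0.056 (Pag1), -0.29 to 0.0075 (Snx16), -0.0095 to 0.15 (Stmn2), -0.074 to 0.058 (Tpd52) and -0.0019 to 0.35 (Zc2hc1a). The cause was not tested.

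Of the relatives, 0 to 1 passed at 12 months with 1 library left out (Zbtb41, log2 fold change 0.47, adjusted p = 0.045, edgeR, without 3-month control replicate 2, against adjusted p = 0.39 with all libraries). The median r between members ranged from 0.048 to 0.64. Over all genes, calls ranged from 13 to 421 at 12 months (35 reported), 21 to 63 at 3 months (37), 187 to 1069 for age in KO (390), 198 to 1040 for age in control (347) and 14 to 50 for the difference (21), so adjusted p-values near the threshold depend on the libraries kept. The highest of these came without both libraries, except at 3 months, where it came from DESeq2.

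With 3 libraries a group, small changes were not detectable. Whether reads were shared with the overlapping genes of Zfp704, Impa1 and Snx16 was not tested.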
